A study of Homo sapiens with 4 samples.

Results

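The Hippo effectors and YAP/TEAD target genes described here are the coactivators YAP1 and WWTR1 (TAZ), their DNA-binding partner TEAD1, and 7 target genes: CCN1, CCN2, ANKRD1, AMOTL2, AXL, AJUBA and LATS2. They were chosen by gene symbol, and all 10 were present once among the 61806 genes of the deposited count table. Total RNA was sequenced from U251-MG, an established human glioblastoma cell line grown in culture. The U251-COL8A1 group, 2 libraries, came from cells infected with a lentiviral pCDH-CMV-MCS-EF1-puro vector that carries the coding sequence of COL8A1, a chain of the network-forming collagen VIII. The U251-NC group, also 2 libraries, came from the same line infected with the negative control version of that vector. The labels give both groups the same genotype, WT, and name no clone, time after infection or separate culture for a replicate. A p-value here sets the group difference against the spread of libraries that may be technical repeats.

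The Hippo pathway is a kinase relay. The kinases STK3 and STK4 activate LATS1 and LATS2, which phosphorylate YAP1 and WWTR1 and keep them out of the nucleus. When the relay is quiet, as on stiff matrix or in spread cells, YAP1 and WWTR1 enter the nucleus and bind TEAD factors, which sit on DNA next to genes such as CCN1, CCN2 and ANKRD1. Several targets, among them LATS2, AMOTL2 and AJUBA, act back on the relay. Much of this control acts on protein location, which transcript counts do not measure. In a bulk culture, fewer cells of one kind and less RNA per cell cannot be told apart.

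The libraries held 31605164 and 27923796 counts in COL8A1 replicates 1 and 2, and 30895414 and 33576228 in NC replicates 1 and 2. COL8A1 itself, the check of the labels, had 4290 and 2259 counts in the COL8A1 libraries against 77 and 82 in the NC libraries. This 43.7-fold difference missed the threshold in edgeR (log2 fold change 5.45, edgeR adjusted p = 0.0681) and passed in DESeq2 (adjusted p = 6.25e-72). A gene that edgeR did not call can therefore still differ by a large amount. Of 8 glial and glioma markers, all 8 averaged at least 1 CPM (counts scaled to library size). Their summed level was 4435 to 5018 CPM in COL8A1 and 4125 to 4696 CPM in NC libraries, mostly VIM (2597 to 3145 CPM). SLC1A3 was at 52.8 and 59.2 CPM in COL8A1 and 27.3 and 27.2 CPM in NC libraries. NES and SOX9 also lay higher in both COL8A1 libraries, as did 18.9% of all genes tested. VIM, SOX2, CD44 and S100B overlapped between the groups. GFAP, the astrocyte filament, was low, at 2.05 and 1.84 CPM in COL8A1 and 0.685 and 0.564 CPM in NC libraries. In each of the immune, endothelial, epithelial and neuronal marker lists 1 gene averaged at least 1 CPM over the libraries. These were CD68 at 3.37 to 5.55 CPM, CDH5 at 60.1 to 78.3 CPM, KRT8 at 263 to 399 CPM and SYT1 at 21.3 to 28.8 CPM. PTPRC, EPCAM, CDH1 and RBFOX3, which define immune, epithelial and neuronal cells, were at 0.283 CPM or less in every library. Of the remaining genes in these lists, CD3E had 0 counts. The highest library was at 0.540 CPM for CD14, 0.324 for SLC17A7, 0.475 for PECAM1 and 1.27 for VWF. The SD of the log2 CPM difference over all genes tested was 0.85 between the COL8A1 libraries and 0.84 between the NC libraries, and 0.82 to 0.88 between libraries of different groups.

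The letters that TEAD factors are best known to bind, GGAATG, are shown here in the promoters of 4 targets that the results below turn on. Each line gives the 250 bases before the RefSeq start on GRCh38.p14, read 5′ to 3′ on the gene's own strand, with GGAATG or its complement CATTCC in capitals. AMOTL2 and AXL have 2 entries each, and the one shown is the one with a match, at the start farther along the gene. Their other entries, chr3:134375418-134375667 and chr19:41218973-41219222, held 0 matches.
CCN2, chr6:131951373-131951622, minus strand: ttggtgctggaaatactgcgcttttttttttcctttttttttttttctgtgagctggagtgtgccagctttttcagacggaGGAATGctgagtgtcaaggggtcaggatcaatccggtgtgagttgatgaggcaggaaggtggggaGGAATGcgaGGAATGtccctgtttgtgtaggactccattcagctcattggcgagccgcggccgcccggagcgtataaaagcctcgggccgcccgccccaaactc
ANKRD1, chr10:90921088-90921337, minus strand: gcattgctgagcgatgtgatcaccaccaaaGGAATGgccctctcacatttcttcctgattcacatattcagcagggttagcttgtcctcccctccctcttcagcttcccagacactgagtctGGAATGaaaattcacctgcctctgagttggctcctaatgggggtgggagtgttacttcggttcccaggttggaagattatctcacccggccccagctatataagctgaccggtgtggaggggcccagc
AMOTL2, chr3:134374448-134374697, minus strand: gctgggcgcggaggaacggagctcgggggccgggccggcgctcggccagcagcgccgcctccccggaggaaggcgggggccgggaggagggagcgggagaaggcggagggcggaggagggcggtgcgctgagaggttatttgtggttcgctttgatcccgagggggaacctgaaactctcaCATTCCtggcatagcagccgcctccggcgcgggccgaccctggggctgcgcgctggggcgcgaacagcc
AXL, chr19:41226505-41226754, plus strand: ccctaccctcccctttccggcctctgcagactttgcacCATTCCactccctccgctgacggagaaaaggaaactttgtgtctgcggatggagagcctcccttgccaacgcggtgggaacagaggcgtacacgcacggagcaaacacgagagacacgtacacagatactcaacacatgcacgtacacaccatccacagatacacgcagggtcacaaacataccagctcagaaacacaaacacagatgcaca
CCN2 held the letters 3 times, at 169 to 164, 104 to 99 and 95 to 90 bases before its start, and ANKRD1 held them 2 times. Of 35116 promoter entries, 11.9% held at least 1 match on either strand and 0.0826% held 3 or more. The 10 genes have 12 entries, some with more than 1 start, and 6 of the 12 held a match. TEAD1 and CCN1 had no entry. A broad form of the AP-1 letters, TGANTCA with any base at N, was in 1 of the 12 entries and in 6.57% of all entries. The 1 entry was that of ANKRD1, which held TGATTCA. This form reads the same on both strands apart from the free base and did not overlap the matches above. These matches describe the sequence and were not tested as binding sites.

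YAP1 (ENSG00000137693, GENCODE release 29: chromosome 11, 102110461 to 102233423, plus strand) encodes the main coactivator of the pathway. It was at 201 and 217 CPM in the COL8A1 libraries and at 221 and 208 CPM in the NC libraries. The groups overlapped, and the highest library was only 1.10 times the lowest. The log2 fold change, COL8A1 over NC as everywhere below, was −0.04 (SE 0.074, 95% interval −0.24 to 0.15, edgeR adjusted p = 0.942).

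WWTR1 (ENSG00000018408: chromosome 3, 149517235 to 149736714, minus strand) encodes TAZ, the paralog of YAP1. Its level was 139.6 and 140.2 CPM in the COL8A1 libraries and 144 and 141 CPM in the NC libraries. The COL8A1 values lay just below the NC values, by less than 1 SE of the difference (log2 fold change −0.03, SE 0.063, 95% interval −0.19 to 0.14, edgeR adjusted p = 0.963). WWTR1 was the steadiest of the 10 genes, with a highest library 1.03 times the lowest. Of the 10041 genes that averaged 300 counts or more, 1.25% had a smaller range over the 4 libraries. Per kilobase of exon, YAP1 stood at 1.92 and 2.07 times WWTR1 in the COL8A1 libraries and at 2.05 and 1.98 times WWTR1 in the NC libraries, so the balance of the 2 coactivator transcripts was nearly the same in each.

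TEAD1 (ENSG00000187079: chromosome 11, 12674591 to 12944483, plus strand), the TEAD factor with the most counts, was the least steady of the 10. It had 7244 and 2730 counts in COL8A1 replicates 1 and 2, and 7591 and 7877 counts in NC replicates 1 and 2, which corresponds to 228 and 98.3 CPM in the COL8A1 libraries and 248 and 234 CPM in the NC libraries. COL8A1 replicate 1 sat close to the NC libraries, and COL8A1 replicate 2 sat at 0.416 times the mean of the other 3. The log2 fold change was −0.56 with a wide interval (SE 0.398, 95% interval −1.61 to 0.49, edgeR adjusted p = 0.852). It was −0.08 without COL8A1 replicate 2 and −1.29 without COL8A1 replicate 1, so 1 library decides the value.

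A single low library of this size was uncommon but not particular to TEAD1. Among the 10041 well-counted genes, 40 (0.398%) had COL8A1 replicate 2 over 1 log2 unit below each of the other libraries, and 173 (1.72%) had some library placed so. The counts of such genes were alike in the 4 libraries, from 40 to 49. JUN, whose AP-1 protein binds DNA beside TEAD factors at many enhancers, was low in the same library. It was at 147 and 9.76 CPM in the COL8A1 libraries and 135 and 136 CPM in the NC libraries. The other AP-1 genes of the lists read below showed no drop of this size in that library. No counted gene placed in GENCODE release 29 shares exon bases with TEAD1. Those that share exon bases with YAP1, WWTR1, CCN2, AMOTL2, AXL or AJUBA had at most 43 counts in any library. How reads in shared bases were counted is not given, so these counts do not bound the reads affected. Whether the low TEAD1 value comes from the cells or from the library was not tested.

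The other TEAD genes were much less abundant in counts and lay closer together. TEAD2 was at 24.0 and 17.4 CPM in the COL8A1 libraries and 19.5 and 23.6 CPM in the NC libraries. TEAD3 was at 11.0 and 11.3 CPM in the COL8A1 libraries and 10.8 and 13.4 CPM in the NC libraries. TEAD4 was at 14.4 and 16.3 CPM in the COL8A1 libraries and 18.3 and 17.7 CPM in the NC libraries. In COL8A1 replicate 2, TEAD2 was the lowest of its 4 values, while TEAD3 and TEAD4 lay within the range of the other libraries. Summed per kilobase of exon, the 4 TEAD genes stood at 40.2 and 26.3 CPM in COL8A1 replicates 1 and 2, and at 42.2 and 42.8 CPM in the NC libraries. TEAD1 made up 55.2% and 36.3% of that sum in COL8A1 replicates 1 and 2, against 57.0% and 53.1% in NC replicates 1 and 2.

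**Figure D1:**
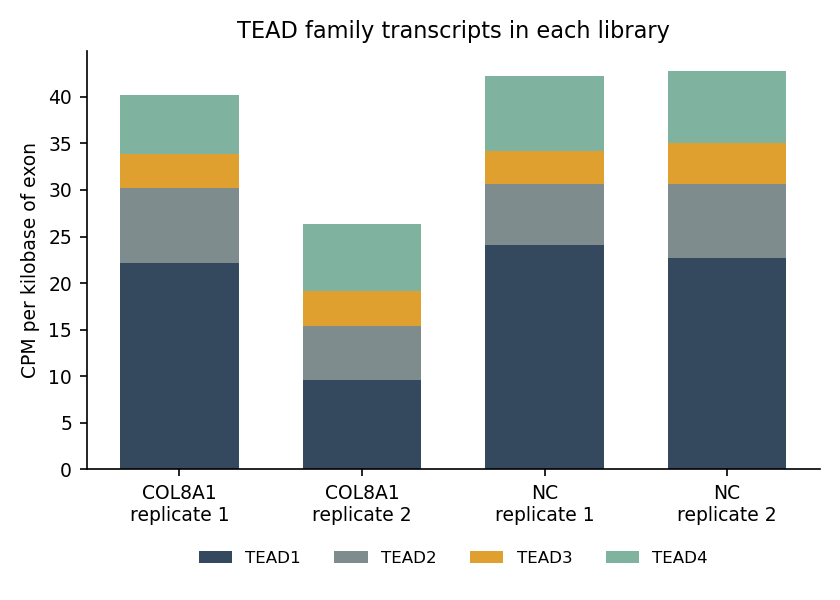
Stacked bars give the level of TEAD1, TEAD2, TEAD3 and TEAD4 in each library, in CPM per kilobase of exon on a linear axis from 0, with no error because each bar is 1 library. The bar of COL8A1 replicate 2 is shorter, at 26.3 against 40.2 to 42.8 in the others, mostly through the TEAD1 segment.

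The next targets by role are those that act back on the relay. LATS2 (ENSG00000150457: chromosome 13, 20973032 to 21061547, minus strand), the kinase that phosphorylates YAP1 and is itself induced by it, was at 32.2 and 32.8 CPM in the COL8A1 libraries and 32.4 and 31.7 CPM in the NC libraries. The groups overlapped, and the values differed by 1.03-fold at most (log2 fold change 0.02, SE 0.092, 95% interval −0.22 to 0.26, edgeR adjusted p = 0.984). LATS2 was the only one of the 10 whose log2 fold change was above 0, and its sign turned without NC replicate 2 (−0.0005).

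AJUBA (ENSG00000129474: chromosome 14, 22971174 to 22982642, minus strand) encodes a LIM protein that binds and restrains LATS kinases. Its level was 152 and 175 CPM in the COL8A1 libraries and 184 and 179.7 CPM in the NC libraries. Both COL8A1 values were below both NC values, with COL8A1 replicate 1 the lowest (log2 fold change −0.15, SE 0.089, 95% interval −0.39 to 0.08, edgeR adjusted p = 0.835). Without COL8A1 replicate 1 the log2 fold change was −0.06, and without COL8A1 replicate 2 it was −0.26.

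AMOTL2 (ENSG00000114019: chromosome 3, 134355874 to 134375479, minus strand) encodes an angiomotin-like protein that binds YAP1 at cell junctions. It had 1615 and 2483 counts in COL8A1 replicates 1 and 2, and 2796 and 3064 counts in NC replicates 1 and 2. In CPM these are 50.8 and 89.4 in the COL8A1 libraries and 91.2 and 90.9 in the NC libraries. COL8A1 replicate 2 was level with the NC libraries, and COL8A1 replicate 1 stood at 0.561 times the mean of the other 3. The log2 fold change was −0.38 (SE 0.275, 95% interval −1.10 to 0.35, edgeR adjusted p = 0.856). Without COL8A1 replicate 1 it was −0.03, and without COL8A1 replicate 2 it was −0.84. The AMOTL2 and TEAD1 values thus rest on different libraries of the same group.

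The remaining targets code for secreted, muscle-type and receptor proteins. CCN1 (ENSG00000142871: chromosome 1, 85580761 to 85583962, plus strand), a secreted matricellular protein formerly named CYR61, was at 132 and 139 CPM in the COL8A1 libraries and 141 and 141 CPM in the NC libraries. The groups did not overlap, but the gap was small (log2 fold change −0.05, SE 0.068, 95% interval −0.23 to 0.12, edgeR adjusted p = 0.907).

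CCN2 (ENSG00000118523: chromosome 6, 131948176 to 131951373, minus strand), the related protein formerly named CTGF and the gene with 3 GGAATG matches above, varied much more. It was at 30.9 and 45.0 CPM in the COL8A1 libraries and 46.2 and 36.8 CPM in the NC libraries. The lowest and the second highest library were both COL8A1, so the groups overlapped. The log2 fold change was −0.13 (SE 0.225, 95% interval −0.72 to 0.46, edgeR adjusted p = 0.941), and it turned positive without COL8A1 replicate 1 (0.12) and without NC replicate 1 (0.04). CCN2 and CCN1, both widely used as readouts of YAP1, therefore did not vary alike: the highest library was 1.49 times the lowest for CCN2 and 1.07 times for CCN1.

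ANKRD1 (ENSG00000148677: chromosome 10, 90912096 to 90921276, minus strand), a muscle ankyrin repeat protein that stretch and YAP1 induce, had the smallest p of the 10. Its level was 113 and 129 CPM in the COL8A1 libraries and 142 and 139.9 CPM in the NC libraries. Both COL8A1 libraries were below both NC libraries, on average by 14.5% (log2 fold change −0.23, SE 0.090, 95% interval −0.46 to 0.01). The unadjusted edgeR p was 0.0578, and the edgeR adjusted p was 0.816 over the 17030 genes tested. Leaving out 1 library at a time gave log2 fold changes of −0.33 to −0.13, so the direction held in each case while the size moved.

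AXL (ENSG00000167601: chromosome 19, 41219203 to 41261766, plus strand), a receptor tyrosine kinase of the TAM family, was at 134 and 187 CPM in the COL8A1 libraries and 185 and 159 CPM in the NC libraries. The lowest and the highest library were both COL8A1, so the groups overlapped. The log2 fold change was −0.10 (SE 0.183, 95% interval −0.58 to 0.38, edgeR adjusted p = 0.943), and its sign turned without COL8A1 replicate 1 (0.12) and without NC replicate 1 (0.01).

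**Figure D2:**
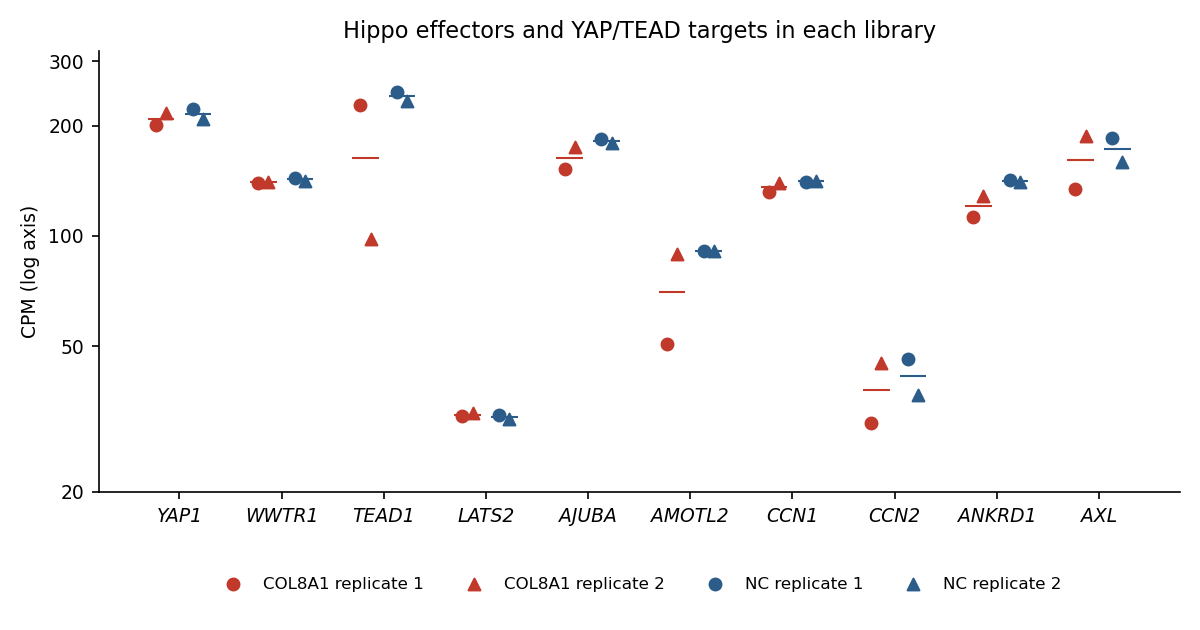
Each point is the CPM of 1 gene in 1 library on a log axis, with COL8A1 (red) left of NC (blue), circles for replicate 1, triangles for replicate 2, and a short line at the group mean of 2 libraries. WWTR1, LATS2 and CCN1 are nearly level over the 4 libraries, TEAD1 drops to 98.3 CPM in COL8A1 replicate 2, and AMOTL2 drops to 50.8 CPM in COL8A1 replicate 1.

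Compared per kilobase of exon, ANKRD1 and CCN1 led, at 56.9 to 72.0 CPM for ANKRD1 and 53.8 to 57.6 CPM for CCN1. The ranges over the 4 libraries overlapped for these genes, but ANKRD1 was above CCN1 in each library. YAP1 (31.9 to 35.2), AXL (26.1 to 36.4) and AJUBA (25.5 to 30.7) came next and overlapped in part. TEAD1 was at 22.2 to 24.1 outside COL8A1 replicate 2 and at 9.56 in it. CCN2 (13.2 to 19.8), WWTR1 (16.6 to 17.1) and AMOTL2 (8.49 to 15.2) were lower. LATS2 was the lowest throughout, at 5.68 to 5.87 CPM per kilobase. The exon lengths are those of GENCODE release 29, which may differ from the models used for counting.

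Read by sign alone within each library, nearly all targets stood on the same side of their own means, except in NC replicate 2. The share of all genes tested on each side was not counted. The deviations of a gene over the 4 libraries cancel out, so a low value in 1 library lifts the others. The counts for the 4 libraries are therefore not independent of each other. In COL8A1 replicate 1 all 7 targets were below their mean over the 4 libraries, with deviations in log2 CPM from −0.62 for AMOTL2 to −0.003 for LATS2 and a median of −0.21. In COL8A1 replicate 2, 1 of 7 was below, and the deviations ran from −0.02 for ANKRD1 to 0.20 for CCN2 with a median of 0.02. NC replicate 1 had 7 of 7 above, with a median deviation of 0.13, and NC replicate 2 had 4 of 7 above, with a median of 0.03. The median deviation of all genes tested was at most 0.01 in any library. COL8A1 replicate 1 was the lowest of the 4 libraries for 6 of the 7 targets, where it was the lowest for 27.1% of all genes tested. Genes of 1 library share its preparation and are not replicates, so this describes 1 library.

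The library with the least TEAD1 was not the library with the lowest targets. In log2 CPM against the mean of the NC libraries, TEAD1 was at −1.29 in COL8A1 replicate 2. The 7 targets there lay between −0.13 (ANKRD1) and 0.13 (AXL), with AMOTL2 at −0.03 and CCN2 at 0.12. On the same scale, TEAD1 was at −0.08, YAP1 at −0.10 and WWTR1 at −0.03 in COL8A1 replicate 1. The 7 targets there lay between −0.84 (AMOTL2) and 0.006 (LATS2), with CCN2 at −0.42 and AXL at −0.35. These values set transcript levels side by side and say nothing of protein.

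**Figure D3:**
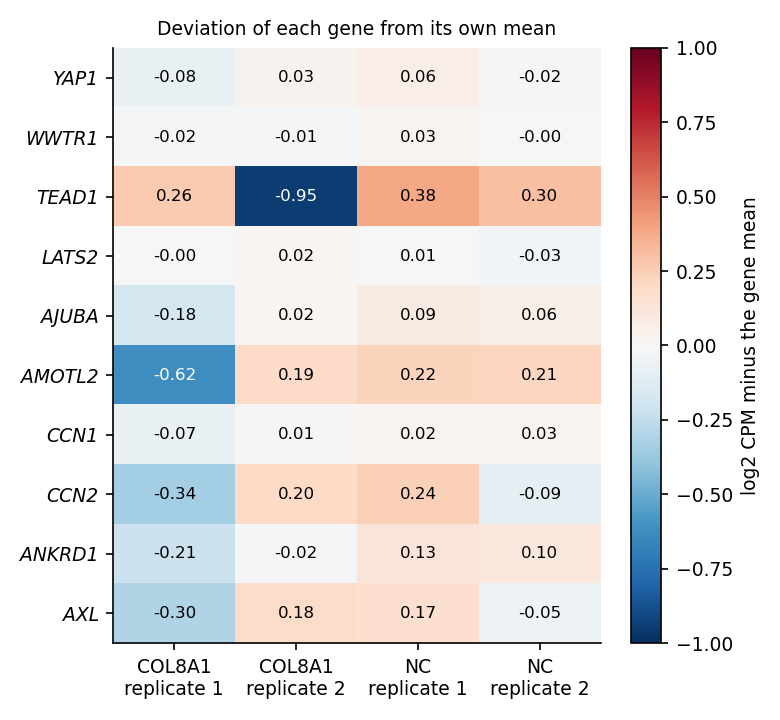
Each cell gives the log2 CPM of 1 gene in 1 library minus that gene's mean over the 4 libraries, from blue (below) to red (above), with COL8A1 libraries left of NC libraries. In the column of COL8A1 replicate 1 every target is below 0, from −0.62 for AMOTL2 to −0.003 for LATS2, which is nearly white. The deepest blue, −0.95, is TEAD1 in COL8A1 replicate 2.

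None of the 10 genes passed the test between vectors. Of 17030 genes tested, edgeR called 2 at an adjusted p under 0.05, or 0.0117%, and 0 of the 10. At an unadjusted p under 0.05 it called 0 of the 10, against 6.07% of all genes tested. The unadjusted p of ANKRD1 was 0.0578 in edgeR, 0.0490 in limma-voom and 0.0469 in edgeR with robust shrinkage. That unadjusted count therefore depends on the method. After adjustment, DESeq2 also called 0 of the 10, against 1.06% of all genes, and limma-voom called 0, with 2 calls among all genes tested. Both COL8A1 libraries lay below both NC libraries for 6 of the 10 (WWTR1, TEAD1, CCN1, ANKRD1, AMOTL2 and AJUBA), against 18.6% of all genes tested, and above them for 0, against 18.9%. In either direction the groups parted for 37.5% of all genes tested. The log2 fold change was below 0 for 9 of the 10, against 49.8% of all genes tested. The median over the 10 was −0.11, where that over all genes tested was 0.001. That median was −0.02 without COL8A1 replicate 1 and −0.18 without COL8A1 replicate 2. These counts were not tested as a set.

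**Figure D4:**
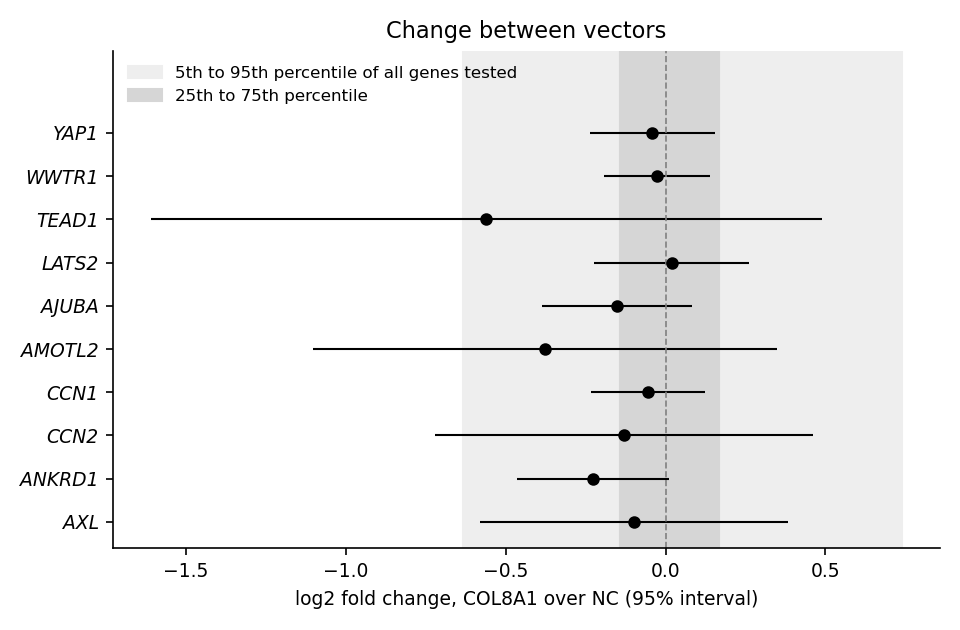
Points are log2 fold changes, COL8A1 over NC, with horizontal lines for the 95% interval of the edgeR fit (2 libraries a group), over bands that hold the middle 50% and 90% of all genes tested. Every interval includes 0, and those of TEAD1, AMOTL2, CCN2 and AXL are the widest.

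The intervals are at the unadjusted 95% level and do not bound what the adjusted test could miss. For WWTR1, CCN1, YAP1 and LATS2 no bound lay farther from 0 than 0.26 log2 units, the upper bound for LATS2. For TEAD1 and AMOTL2 they reached −1.61 and −1.10, and the values of both genes rest on a single library. With 2 libraries against 2, an exact two-sided permutation test cannot give a p below 0.333.

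The rest of the pathway was read through 6 lists, of which 69 of 75 genes had enough counts to be tested. In edgeR 0 of the 69 passed after adjustment, against 0.0117% of all genes tested. DESeq2 called 1 of the 69 after adjustment, against 1.06% of all genes tested. Before adjustment 2 were higher and 4 lower in edgeR at a p under 0.05. For all genes tested those unadjusted shares were 3.44% higher and 2.63% lower. The 6 were FAT4 and IGFBP3, which were higher, and EDN1, FHL2, CNN1 and ATF3, which were lower. The median log2 fold change of the 69 was −0.01.

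Among the Hippo kinases and upstream regulators, 11 of 21 tested genes had a log2 fold change above 0 and 10 below (median 0.02). FAT4, a giant cadherin placed upstream of Hippo signalling in vertebrate development, had the smallest p of the list. It was at 49.1 and 50.6 CPM in the COL8A1 libraries and 35.6 and 35.2 CPM in the NC libraries, with close replicates in both groups. Its log2 fold change was 0.49 (SE 0.089), with an adjusted p of 0.50 in edgeR, which missed the threshold, and of 0.0108 in DESeq2, which passed it.

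The core kinases showed no call. LATS1, the paralog of LATS2, was at 64.6 and 72.4 CPM in the COL8A1 libraries and 67.6 and 64.9 CPM in the NC libraries. STK3 was at 40.8 and 38.5 CPM in the COL8A1 libraries and 40.6 and 40.4 CPM in the NC libraries. Its paralog STK4 was at 35.1 and 49.0 CPM in the COL8A1 libraries and 31.4 and 84.6 CPM in the NC libraries, so its NC libraries spanned the COL8A1 ones. NF2, the scaffold that brings LATS kinases to the membrane, was at 61.5 and 79.5 CPM in the COL8A1 libraries and 75.9 and 119 CPM in the NC libraries. STK4 and NF2 were both highest in NC replicate 2, while LATS1 and STK3 were nearly level.

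The other YAP/TEAD targets went both ways, with 8 of 21 tested genes above 0 and 13 below (median −0.03). Both edgeR and DESeq2 called 0 of them after adjustment, and 1 higher and 1 lower gene had an unadjusted edgeR p under 0.05. IGFBP3, which binds insulin-like growth factors, was at 30.6 and 26.7 CPM in the COL8A1 libraries and 23.3 and 20.1 CPM in the NC libraries (log2 fold change 0.40, SE 0.135, edgeR adjusted p = 0.784). EDN1, the peptide endothelin 1, was at 1.42 and 1.98 CPM in the COL8A1 libraries and 4.50 and 2.58 CPM in the NC libraries (log2 fold change −1.06, SE 0.396, edgeR adjusted p = 0.816). COL8A1 replicate 1 was the lowest library for 11 of these 21 genes, against 27.1% of all genes tested. Chosen after their values were seen, F3 (tissue factor) was at 104 and 157 CPM in the COL8A1 libraries and 178 and 162 CPM in the NC libraries, and NT5E (CD73) at 51.3 and 76.2 CPM in the COL8A1 libraries and 75.6 and 65.6 CPM in the NC libraries. Both had their lowest value in COL8A1 replicate 1. MYOF, the member of that list with the most counts and also chosen after its values were seen, was at 1357 and 1468 CPM in the COL8A1 libraries and 1436 and 1415 CPM in the NC libraries.

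SRF with its MRTF partners, and AP-1, share several of these targets with YAP1. Of 12 SRF and MRTF genes, 7 were above 0 and 5 below (median 0.01). FHL2, a LIM protein, was at 71.2 and 69.7 CPM in the COL8A1 libraries and 89.2 and 83.7 CPM in the NC libraries (log2 fold change −0.30, SE 0.080, edgeR adjusted p = 0.67). CNN1, a smooth muscle calponin, was at 0.787 and 0.432 CPM in the COL8A1 libraries and 1.21 and 1.93 CPM in the NC libraries, too few counts to weigh (edgeR adjusted p = 0.808). Neither passed after adjustment.

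Of 8 AP-1 genes, 5 were above 0 and 3 below (median 0.04). FOS was at 4.03 and 4.14 CPM in the COL8A1 libraries and 4.04 and 4.63 CPM in the NC libraries, and FOSL1 at 27.1 and 33.1 CPM in the COL8A1 libraries and 30.7 and 26.6 CPM in the NC libraries, so both overlapped between groups. ATF3, a stress-induced factor, was at 4.59 and 7.53 CPM in the COL8A1 libraries and 12.2 and 13.5 CPM in the NC libraries (log2 fold change −1.08, SE 0.277, edgeR adjusted p = 0.662). JUND, chosen after its values were seen, was at 67.1 and 58.7 CPM in the COL8A1 libraries and 4.96 and 68.1 CPM in the NC libraries. JUN and JUND were thus each low in a single library, and not in the same one.

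VGLL proteins bind TEAD factors at the surface that YAP1 uses. Of the 5 other TEAD and VGLL genes tested, 2 were above 0 and 3 below. Both edgeR and DESeq2 called 0 of them, and edgeR had 0 at an unadjusted p under 0.05. Of the other CCN genes, CCN3, which is often opposite in action to CCN2, was at 14.9 and 17.8 CPM in the COL8A1 libraries and 14.4 and 13.1 CPM in the NC libraries (log2 fold change 0.25, SE 0.150, edgeR adjusted p = 0.835). CCN4 had at most 14 counts in any library, CCN5 had 2 counts in 1 NC library and CCN6 had 0 in each.

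**Figure D5:**
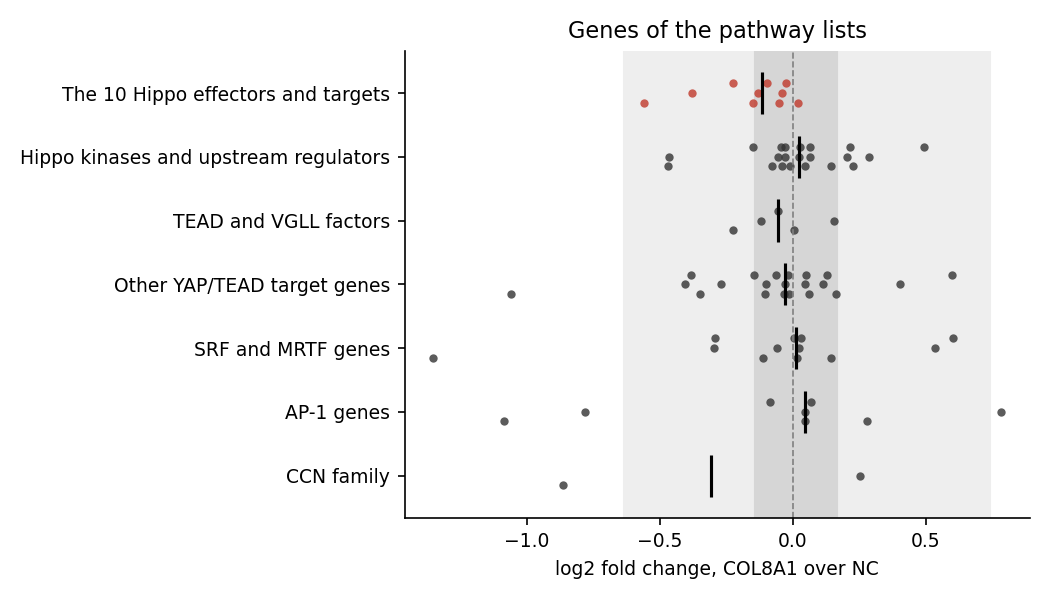
Each point is the log2 fold change, COL8A1 over NC, of 1 tested gene, with a row for the 10 genes (red) and for each of the 6 lists (black), short vertical lines at the medians, and bands that hold the middle 50% and 90% of all genes tested. The medians of the lists with at least 5 tested genes lie between −0.06 and 0.04, and that of the 10 genes lies at −0.11.

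The genes whose pattern over the 4 libraries was most like that of CCN2, among 9938 genes with a mean of at least 10 CPM, were NBPF9, MBD5 and CDCA7L, with root mean square differences of 0.006, 0.025 and 0.034 log2 units. CDCA7L, for example, was at 68.2 and 100.5 CPM in the COL8A1 libraries and 108 and 81.7 CPM in the NC libraries. For CCN1 they were MRPL57, GPC4 and BZW2, with differences of 0.0025, 0.0035 and 0.0036. With 4 libraries, close matches arise readily, and CCN1 itself was only 0.039 log2 units (root mean square) from its own mean.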

How the data were processed

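The authors deposited raw counts, 1 value for each gene and library, not normalized. The submitters' processing notes name the human build hg38, featureCounts (version given as 0.3), HISAT2 2.2.1 and Trim Galore 0.6.9. The strand setting, annotation release and parameters are not given in these sources. Whether reads of a gene and an antisense partner were told apart is therefore not known. The table held 1 further line without a gene or counts, which was left out. Totals ran from 27923796 to 33576228 counts, and whether PCR copies were removed is not stated.

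edgeR 4.0.16 in R 4.3.3 was run with filterByExpr, TMM scaling and its quasi-likelihood F-test, in a model that held only the group. It had 2 residual and 2.64 prior degrees of freedom, and p-values were adjusted after Benjamini and Hochberg over 17030 genes at a threshold of 0.05. SE is the absolute log2 fold change over the square root of F, and the 95% intervals use it with the t quantile of the fit. CPM use TMM-scaled library sizes, and deviations use log2 CPM with 0.5 counts added. DESeq2 1.42.0 and limma-voom (limma 3.58.1) were alternatives, beside other scaling, filters, a replicate term, robust shrinkage and each library left out. The fits were tested on simulated data. Promoters are from RefSeq (GRCh38.p14), and positions and exon lengths from GENCODE release 29. The genes, lists and tests were chosen with earlier results of these data known. The genes named are the 10, COL8A1, 10 fixed pathway genes, up to 4 genes per list with the smallest unadjusted p under 0.05, and 3 genes each most like CCN1 and CCN2. F3, NT5E, MYOF, JUND, the other CCN genes, and the markers given by value were named outside that rule, after their values were seen. Samples with the same replicate number did not deviate together (correlation −0.035), so the number was not used as a pairing.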

Additional observations from a re-analysis of the deposited data

How the results depend on the processing

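Of the 10 Hippo effectors and targets, 0 were called in edgeR and under each of the 13 alternatives run, DESeq2, limma-voom and robust shrinkage included. Their log2 fold changes kept their sign under all alternatives except when 1 library was left out. Without 1 library, YAP1 ranged from −0.101 to 0.0136, LATS2 from −0.000513 to 0.0342, CCN2 from −0.43 to 0.12, and AXL from −0.36 to 0.12. The median of the 10 ranged from −0.19 to −0.0192. With 1 library left out, 33.1% to 35.5% of all genes tested had their COL8A1 values below their NC values. Without COL8A1 replicate 2, where COL8A1 replicate 1 stood alone for its group, this held for 6 of the 7 targets. Without COL8A1 replicate 1 it held for 4 of the 7, against 34.8% of all genes tested. Without NC replicate 1 it held for 4, and without NC replicate 2 for 5. With 1 library left out, 1 group holds a single library, which is assumed to vary like the other group, so a call lost or gained so is a weak guide.

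Over all genes tested, edgeR called 0 higher and 2 lower. The counts were 11 higher and 6 lower with no low-count filter, 103 higher and 77 lower in DESeq2, and 8 higher and 6 lower with robust shrinkage. With the replicate block, 1 was lower and 0 higher, and 0 of the 10 were called. Leaving out a library gave 0 to 2 higher and 0 to 2 lower. Of the pathway lists, DESeq2 called 1 gene, FAT4, and edgeR 0. The cause of these differences was not tested. Each of the 10 genes had at least 910 counts in every library.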
